A study of Mus musculus with 39 samples.

Results

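Gene-dense windows were stretches of 1 Mb of the mouse autosomes that held the midpoints of at least 20 protein-coding genes. Windows began at multiples of 1000000 bases on chromosomes 1 to 19 (mm10), and genes were those of the GENCODE M21 annotation of the same assembly. Of 2411 windows with at least 50% of assembled bases, 285 were gene-dense, and they held 8738 of 20807 protein-coding genes. By gene content, 35 of them were receptor clusters, in which at least 50% of the genes were chemosensory or formyl peptide receptors. A further 13 held at least 50% of genes of 1 other family, such as keratins, histones or defensins. The remaining 237 were classed as of mixed gene content, which includes windows whose gene symbols name no family. The other 2126 windows held fewer than 20 genes.

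The calls came from the wild type mouse line R1 of embryonic stem (ES) cells, whose source was given as the inner cell mass, grown with leukemia inhibitory factor. H3-wrapping-seq measured how much DNA the nucleosomes protected from MNase, with 4 libraries in 2 independent experiments, and replication timing (RT) was measured on sorted fractions of S phase, S1 to S4, with 2 libraries for each of the 4 fractions. For each assay 1 deposited list of domains was used. These lists give 1 value a domain and no values of single libraries or read numbers, so the depth behind a domain is unknown from them and no spread between replicates was computed. Tracks of values per bin or per replicate were not analysed here. The comparison was between parts of the genome and not between groups of cells, and the lists hold no expression values against which the cell type could be checked. Shares of length were therefore compared as descriptions, with no test.

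A nucleosome can hold its DNA over the full length or let the ends come loose, and MNase then leaves longer or shorter fragments. The nucleosome wrapping domains (NRDs) are stretches in which the share of longer against shorter fragments was above the genome mean (TiNRDs, tightly wrapped, positive score) or below it (LoNRDs, loosely wrapped, negative score). RT domains are stretches copied mostly early (positive log2 ratio of early to late fractions) or mostly late (negative) in S phase. In general, early replicating chromatin is rich in genes that most cells use, while large arrays of receptor genes, which are silent outside sensory neurons, mostly belong to late replicating chromatin of high A/T content. Genes used in all cells mostly start at CpG islands, where CG dinucleotides are kept, and olfactory receptor genes mostly do not.

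To show what kind of sequence the classes hold, the 200 bases upstream of 1 gene start in 1 window of each of 4 sets are given from the GRCm38 assembly, 5′ to 3′ on the strand of the gene, with each CG dinucleotide in capitals. The windows were the first of their set by number of genes or by loose and late length, except that the keratin window was the second of the windows of other families. The genes were those nearest to the centre of their window, among receptor genes for the receptor window. Nucb1, which encodes a calcium-binding protein, stood for the mixed windows (chr7:45510407-45510606, minus strand), with 14 CG in a TiNRD and an early domain. The olfactory receptor gene Olfr609 stood for the receptor clusters (chr7:103498063-103498262, minus strand), with 1 CG in a LoNRD and a late domain. The keratin gene Krt23 (chr11:99493138-99493337, minus strand) had 5 CG in a TiNRD and a late domain. Ifi206, an interferon-inducible gene of the mixed window with the longest loose and late length (chr1:173491042-173491241, minus strand), had 0 CG in a LoNRD and a late domain.
Nucb1: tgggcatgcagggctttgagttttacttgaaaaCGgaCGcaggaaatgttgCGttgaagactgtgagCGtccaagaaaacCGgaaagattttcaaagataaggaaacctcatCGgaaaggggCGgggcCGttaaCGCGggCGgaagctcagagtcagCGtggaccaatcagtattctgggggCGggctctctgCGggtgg
Olfr609: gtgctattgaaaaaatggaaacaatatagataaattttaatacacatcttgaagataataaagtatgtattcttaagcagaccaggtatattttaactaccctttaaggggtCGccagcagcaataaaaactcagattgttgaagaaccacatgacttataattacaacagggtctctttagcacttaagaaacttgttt
Krt23: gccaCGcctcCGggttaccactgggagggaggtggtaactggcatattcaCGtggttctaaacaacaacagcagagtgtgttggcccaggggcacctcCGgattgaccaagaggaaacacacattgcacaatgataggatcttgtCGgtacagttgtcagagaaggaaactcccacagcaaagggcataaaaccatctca
Ifi206: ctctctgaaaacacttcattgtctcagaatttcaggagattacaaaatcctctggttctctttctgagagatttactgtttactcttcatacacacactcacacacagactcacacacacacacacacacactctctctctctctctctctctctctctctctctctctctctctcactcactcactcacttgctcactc

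Over all genes the same contrast was seen in these 200 bases. Receptor genes of receptor cluster windows had a median of 0 CG, and 498 of 967 (51.5%) had none, while genes of mixed windows had a median of 8 and 497 of 7082 (7.02%) had none. The other genes of the receptor windows lay between, with a median of 3 CG. Over all genes of the tested windows the median was 7, and 9.45% had none. A start was called CpG-rich where the 500 bases on either side had at least 50% G/C and an observed to expected CpG ratio of at least 0.6. By this measure 3310 genes of mixed windows (46.7%), 68 of the 212 other genes of receptor windows (32.1%) and 0 of the 967 receptor genes had a CpG-rich start. The share over all genes of the tested windows was 45.7%, so that the mixed windows were near it and the receptor genes below it.

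Most gene-dense windows were tight and early. TiNRDs covered 83.5% of their length and early RT domains 79.8%, against 48.1% and 39.4% of the windows with fewer genes. Counted by window, 244 of the 285 (85.6%) were tight over at least 50% of the length, against 54.6% of all 2411 windows. At least 50% of early length was found in 234 windows (82.1%), against 45.4% over all windows. Both held for 229 windows (80.4%, against 40.7% over all), and 37 windows (13%, against 43% over all) were at least 50% loose and at least 50% late. The windows are not replicates: the 285 windows formed 135 runs of neighbours, and the domain that held most of a window was 1 of only 137 NRDs. On chromosome 11, a single TiNRD (chr11:93500001-104700000) held 10 gene-dense windows.

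The mixed and the receptor windows lay on opposite sides of both lists. In mixed windows 94.4% of the length was in TiNRDs and 90.6% in early RT domains, and 88.7% was both. In receptor cluster windows 24% of the length was in TiNRDs and 22.6% in early domains, while 64.4% was both loose and late. Of the 237 mixed windows 231 (97.5%) were at least 50% tight and 223 (94.1%) at least 50% early, and 170 (71.7%, against 17.8% of all windows) lay wholly in TiNRDs and wholly in early domains. Of the 35 receptor windows 7 were at least 50% tight, 6 at least 50% early, and 27 (77.1%) at least 50% loose and at least 50% late. No receptor window was wholly tight and early, and 8 (22.9%) were wholly loose and late, which is near the 18.2% of all windows. The 13 windows of other families were divided, with 43.8% of the length tight and 36.2% early.

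The deposited values gave the same order. The mean NRD score of a window, weighted by the length of the domains in it, had a median of 0.984 in mixed windows, −0.457 in receptor clusters and 0.0748 in windows of other families. The mean RT value (log2) had medians of 1.32, −0.49 and 0.33. For comparison, the windows with fewer genes had a median score of −0.0641 and a median RT value of −0.26. The ranges overlapped: scores of mixed windows went from −1.83 to 1.64 and those of receptor windows from −0.953 to 0.873.

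**Figure D1:**
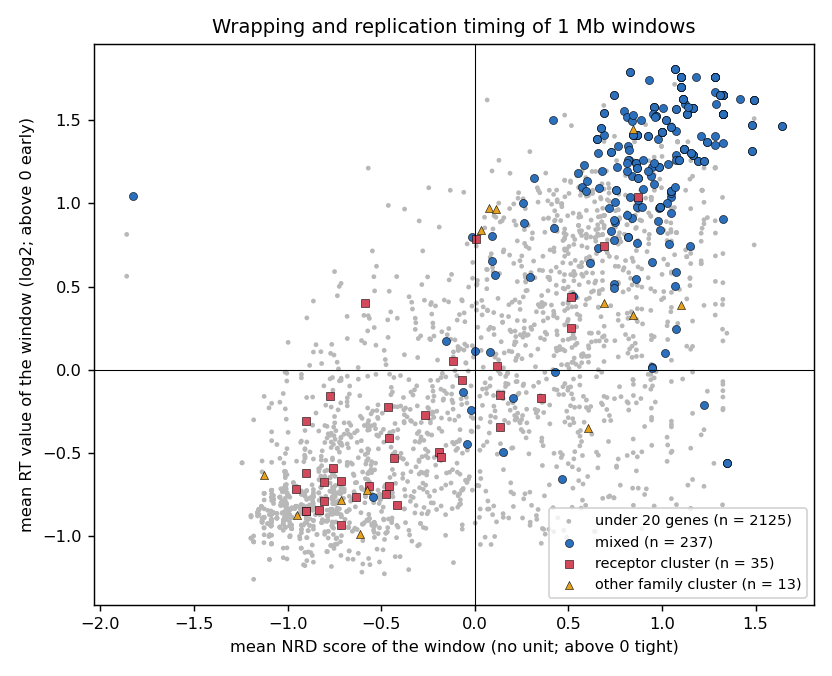
Mean NRD score (x axis, no unit) and mean RT value (y axis, log2) of each 1 Mb window, both weighted by the length of the domains in it; grey points are windows with fewer than 20 genes, circles, squares and triangles the gene-dense classes. Mixed windows fill the upper right, with medians of 0.984 and 1.32, and receptor cluster windows the lower left, with medians of −0.457 and −0.49.

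The rise of tight and early length with the number of genes was a matter of the mixed windows. Where no class of receptors or other family made up at least 50% of the genes, the tight share of the length was 6.49% in windows without a protein-coding gene, 30.3% with 1 to 4, 65.3% with 5 to 9, 82.5% with 10 to 14 and 89.4% with 15 to 19 genes. In the gene-dense range it was 93.9% with 20 to 24 genes and 97.9% with 40 or more. The early share of the mixed windows went from 3.19% without a gene to 87.4% with 20 to 24 and 97.6% with 40 or more genes. Windows in which receptors or another family made up at least 50% of the genes had tight shares of only 25.7 to 36.4% in the 4 bins of 20 or more genes, with no order by gene number. Just below, the 13 such windows with 15 to 19 genes were 65.4% tight and 57.3% early, and with 1 to 14 genes the tight shares were 33.1 to 41.4%. Just at the limit, the 28 windows with 20 genes were 86.8% tight and 80.9% early, and the 30 windows with 19 genes were 88.7% tight and 84.3% early.

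**Figure D2:**
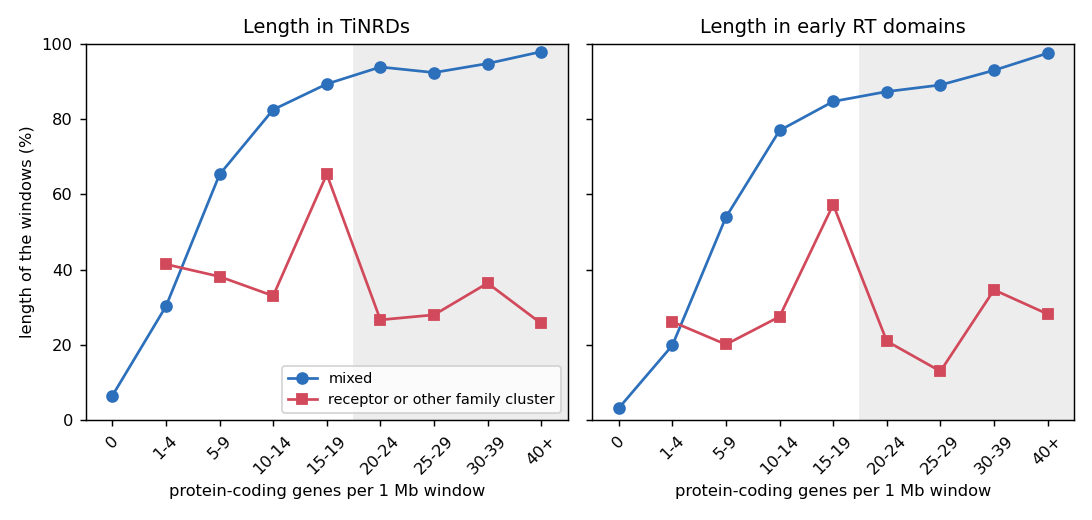
Share of the length in TiNRDs (left) and in early RT domains (right) by the number of protein-coding genes of the window; the shaded range holds the gene-dense windows. The line of mixed windows climbs to 97.9 and 97.6% at 40 or more genes, while the windows of receptors or another family stay at or below 36.4% from 20 genes on.

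The 5 mixed windows with the most genes lay wholly in a TiNRD and wholly in an early domain. The window with 69 genes (chr7:45000001-46000000) held the genes Rpl13a and Rpl18 of the cytosolic ribosome and the sulfotransferase gene Sult2b1, in a domain with score 1.12 and an RT value of 1.32. A window with 64 genes (chr11:69000001-70000000) held Polr2a, the largest subunit of RNA polymerase II, with values of 0.926 and 1.4. The lipocalin genes Lcn12, Lcn8, Lcn5 and Lcn6, which encode carriers of small molecules and are known from the epididymis, lay in a window with 62 genes (chr2:25000001-26000000), with values of 1.48 and 1.31. The window with 62 genes at chr17:35000001-36000000, in the major histocompatibility complex, held the genes Ly6g6c, Ly6g6d, Ly6g6e and Ly6g6f and also Pou5f1, a core pluripotency factor, with values of 1.31 and 1.65. Zinc finger genes opened the window with 61 genes (chr7:30000001-31000000), with values of 1.11 and 1.62.

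Several lists of genes used in most cells had all of their members in gene-dense windows in tight and early chromatin. All 39 cytosolic ribosomal protein genes in these windows (of 81 tested), all 37 mitochondrial ribosomal protein genes (of 78), all 24 proteasome subunit genes (of 47), all 16 DNA replication factors (of 43) and all 8 RNA polymerase II subunits (of 13) had their midpoint in a TiNRD and in an early domain. This was also true of 47 homeobox and developmental transcription factors (of 186) and of 17 Hox genes (of 39), which pattern the body axis and are mostly silent in ES cells. These counts must be read against all genes of mixed windows, of which 96.4% were tight and 92.5% tight and early. In windows with fewer genes, 36 of 42 cytosolic ribosomal protein genes and 20 of 27 DNA replication factors (74.1%) were in TiNRDs, beside 74.8% of all genes of these windows.

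Single genes gave the values behind these counts. Among core pluripotency genes, Lin28a, which binds let-7 precursors, lay in a domain with score 1.28 and RT value 1.76, Klf2 with 1.13 and 1.54, and Tdgf1, a Nodal co-receptor, with 0.868 and 1.41. The other 20 of the 24 genes on this list lay in windows with fewer than 20 genes, where 17 were tight and all 20 early, beside 74.8% and 71.1% of all genes of these windows. Of the replication genes, Mcm7, a subunit of the replicative helicase, had values of 1.08 and 1.56, the origin licensing factor Cdc6 1.1 and 1.76, and Cdt1 1.15 and 1.3. Lig1, the ligase that joins Okazaki fragments, was tight and early itself but lay in a window (chr7:13000001-14000000) of 400 kb early and 600 kb late length that it shared with vomeronasal receptor genes.

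Receptor cluster windows lay on 11 chromosomes, most of them on chromosomes 7 (10 windows) and 2 (8 windows). Olfactory receptors, which detect odorants in the nose, made up most of the receptor genes in 28 windows, vomeronasal type 1 receptors, which detect pheromones, in 6, and taste receptors in 1. The olfactory windows were 23.6% tight and 26.8% early. The vomeronasal windows were 30% tight and only 6.67% early, and their tight length was mostly late (25.8% of the length was tight and late). This rested on 3 windows of chromosome 7, at 20, 21 and 23 Mb, with 600, 500 and 350 kb tight and late, in which 10, 7.83 and 54.7% of 50-mers occurred at a single place of the chromosome. The other 3 vomeronasal windows had 0, 0 and 100 kb. The taste receptor window (chr6:132000001-133000000) was wholly loose and wholly late.

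Of the 5 receptor windows with the most genes, 4 were mostly loose. The window with 58 genes at chr7:103000001-104000000, of which 51 were olfactory receptors such as Olfr582 and Olfr583, was wholly late, with 900 kb loose and 100 kb without a call, and its main domains had a score of −0.508 and an RT value of −0.75. A window with 52 genes (chr10:129000001-130000000), among them Olfr763 and Olfr765, had 900 kb loose and 800 kb late. On chromosome 2, the windows at chr2:86000001-87000000 (49 genes, 48 receptors) and chr2:87000001-88000000 (50 genes, 48 receptors) were wholly loose with a score of −0.902, but 350 kb of the former and 450 kb of the latter were early. The window with 48 genes at chr7:102000001-103000000 held only 33 receptors and was 700 kb tight and 650 kb early.

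Some receptor windows were mostly tight or early. At chr11:49000001-50000000, 19 of 31 genes were olfactory receptors such as Olfr56 and Olfr1396, and the window was wholly tight (score 0.873) with 850 kb early and none late. At chr7:107000001-108000000, 15 of 23 genes were receptors, among them Olfr2 and Olfr713, with 600 kb tight and 900 kb early. The windows at chr2:90000001-91000000 (13 of 23 genes) and chr11:74000001-75000000 (11 of 21 genes) had 800 kb tight each, with 600 and 700 kb early. The last was a vomeronasal window, chr7:20000001-21000000 (17 of 29 genes), with 600 kb tight but 850 kb late, in which only 10% of 50-mers occurred at a single place of the chromosome. The share of receptor genes that made a window a receptor cluster set the value: with a limit of 70% of the genes, 25 windows remained and 9.2% of their length was tight, and with a limit of 30% there were 47 windows with 36.6%.

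Within receptor windows, a smaller share of the receptor genes than of their neighbours was tight or early. At the midpoints of the 967 receptor genes the call was tight for 119 (12.3%) and early for 140 (14.5%). Of the 212 other genes in the same windows, 134 (63.2%) were tight and 119 (56.1%) early. In the 18 receptor windows that held both kinds of NRD, 100 of 431 receptor genes (23.2%) and 122 of 154 other genes (79.2%) were tight. Receptor genes that lay in mixed windows were tight in 134 of 231 cases (58%) and early in 114 (49.4%), while 96.4% of all genes of mixed windows were tight. All these genes share a few domains, and their number is no number of independent observations.

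**Figure D3:**
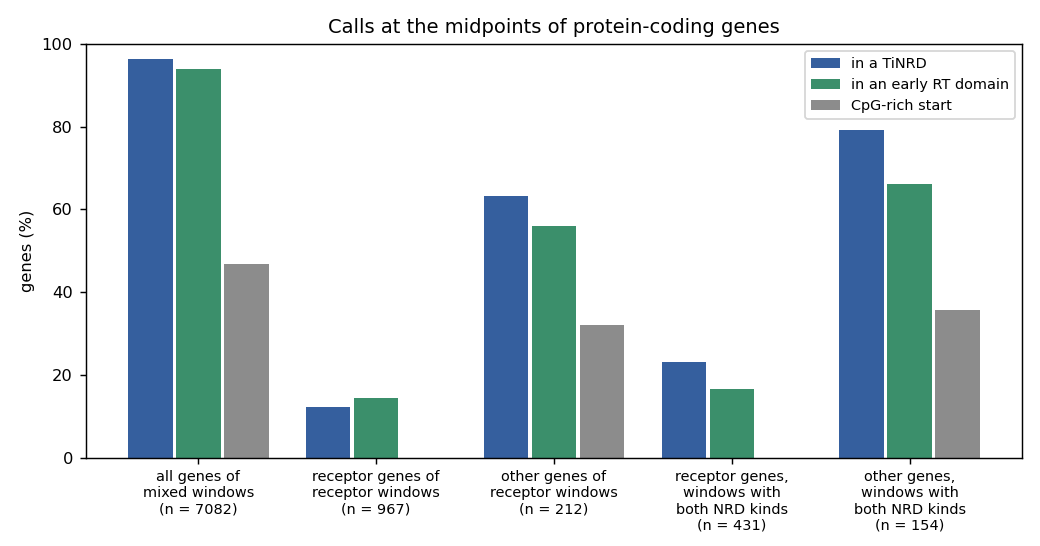
Percent of protein-coding genes whose midpoint lay in a TiNRD (blue) or an early RT domain (green) and percent with a CpG-rich start (grey), for groups of genes with their number under each group. Receptor genes reach 12.3% tight and have no grey bar, while the other genes of the same windows reach 63.2%.

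The NRD borders of the receptor windows were set beside their nearest genes. There were 27 borders in 20 of the 35 windows. Both kinds of NRD were present in 51.4% of receptor windows, against 11.4% of mixed windows and 28.8% of all windows. The nearest genes on both sides were receptors at 16 borders, 1 of them was a receptor at 9 borders, and none at 2. Receptors were also most of the genes: the 18 windows with both kinds of NRD held 431 receptor genes and 154 others. How many borders would lie between receptors by gene content alone was not computed. The borders at chr7:103200000, chr7:103300000, chr16:59400000 and chr16:59600000 faced a stretch without a call. At chr2:85200000 the border fell between Lrrc55, which encodes an auxiliary protein of potassium channels, on the tight side and Olfr987 on the loose side. At the other end of this LoNRD, at chr2:90200000, it fell between the olfactory receptor genes Olfr1270 (loose) and Olfr1506 (tight). These 4 genes were named after their values were seen, because they bound the longest run of receptor windows.

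That run, chr2:85000001-91000000, held 6 receptor windows with 227 receptor genes among 248 genes. A single LoNRD (chr2:85200001-90200000, score −0.902) covered 5 Mb of it. The RT list divided the same stretch further: 2 early domains lay inside the LoNRD, of which chr2:86150001-86500000 had an RT value of 0.1 and chr2:87300001-87750000 one of 0.46. Neither had a counterpart in the NRD list. Both were shorter than the span over which the NRD list was smoothed, so a counterpart may have been lost there.

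The run at chr7:102000001-109000000 had 6 receptor windows and 1 mixed window with 197 receptors among 269 genes, and in it the lists changed together. The NRD list held 10 domains there, 5 tight and 5 loose, and the RT list 8 domains, 4 early and 4 late. At chr7:104100001-104500000, for example, a TiNRD of score 0.083 lay over an early domain of 0.25 that ended 50 kb before it. The border at its end fell within Trim30d, of a family of ubiquitin ligases known for antiviral roles.

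The longest run of gene-dense windows, chr11:94000001-104000000, showed the reverse of chromosome 2. All of its 332 genes lay in 1 TiNRD of score 1.1, with no receptor gene among them. The RT list was early except for a late domain of 550 kb (chr11:99400001-99950000, RT value −0.72), which fell in the window that begins with the keratin genes Krt222, Krt24 and Krt25 (chr11:99000001-100000000, 35 keratin genes among 58 genes). All 35 of these genes, for keratins, which form the filaments of epithelial cells, and for proteins associated with them in hair, were tight, with 25 late and 10 early. The early ones included Krt222, Krt24 and Krt25, and the late ones ran from Krt12 to Krtap9-5, between early domains of 1.76 and 1.7. Krt12 and Krtap9-5 were named after their calls were seen. The late domain of 550 kb was also shorter than the span over which the NRD list was smoothed. Hoxb genes, such as Hoxb1 and Hoxb9, lay in the same TiNRD and in early chromatin.

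**Figure D4:**
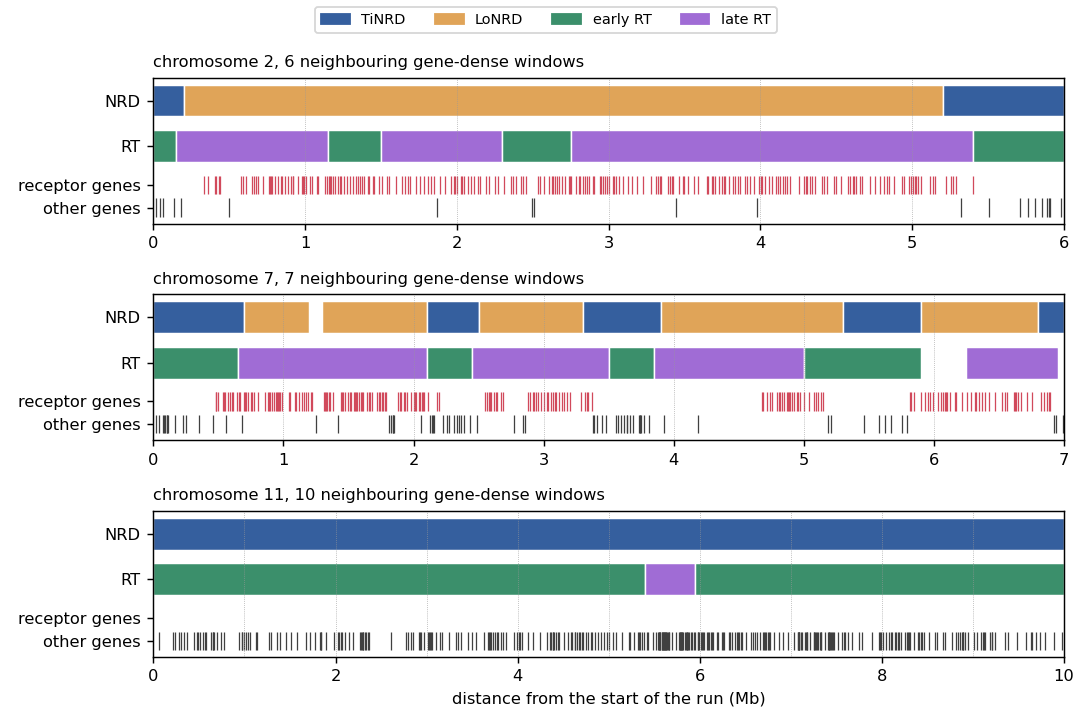
NRD and RT calls and the midpoints of protein-coding genes along 3 runs of neighbouring gene-dense windows, as distance from the start of the run in Mb; dotted lines divide windows, blank stretches had no call. On chromosome 2 a LoNRD of 5 Mb holds 2 early domains, on chromosome 7 both lists alternate, and on chromosome 11 a late domain of 550 kb lies in a TiNRD that covers the whole run.

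The windows of other families took every combination of calls. The protocadherin window with 67 genes at chr18:37000001-38000000, whose proteins give neurons their surface identity, was wholly tight (score 0.69), 500 kb early and 500 kb late. The histone window at chr13:23000001-24000000, with 31 histones and 12 vomeronasal type 1 receptors among 54 genes, was 800 kb loose and 600 kb early. It had no late length, but 400 kb had no RT call. Its main domain had a score of only −0.094, and its mean score was 0.033. A window of 47 genes with Lor and the small proline-rich proteins Sprr2a1 and Sprr2a2 of the skin barrier (chr3:92000001-93000000) was wholly loose and late, with values of −0.578 and −0.72. The defensin window (chr8:21000001-22000000, 39 genes, among them Defa21 and Defa23, antimicrobial peptides of the gut) had 900 kb tight and was wholly late, with values of 0.607 and −0.35, but only 40.9% of its 50-mers were single. The prolactin window (chr13:27000001-28000000) was wholly loose and late, and the zinc finger window (chr13:67000001-68000000) was 700 kb loose and wholly early.

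Counted by gene over all gene-dense windows, the families fell into 4 patterns. Loose and late families were olfactory receptors, with 192 of 1003 genes (19.1%) tight and 227 (22.6%) early, the late cornified envelope and small proline-rich proteins, with 5 of 46 tight and none early, and the prolactins, with none of 21 tight or early. Tight and early families were the kallikreins, secreted proteases, with all 26 genes both tight and early, and the Ly6 group of surface proteins, with all 25 tight and 24 early. Zinc finger genes, many of which encode repressors of transposons, were tight in 189 (84.4%) and early in 217 (96.9%) of 224 cases. Tight with much late length were the 57 protocadherins (all tight, 32 late), the 42 defensins (38 tight, 31 late) and the 100 keratins (86 tight, 39 late). Of the 100 keratins, however, 57 were both tight and early and 14 both loose and late. The chromosome 11 window described above held 25 of the late ones. Often loose and mostly early were the replication-dependent histones, which package newly copied DNA: 41 of 67 genes were loose, 56 early and 0 late. The family was divided, since 24 of the 67 genes were both tight and early. In the window that held 31 of them (chr13:23000001-24000000), the main NRD had a score of only −0.094. Over all genes of gene-dense windows the shares were 83.8% tight and 81.1% early. Genes of a family often share domains, so their numbers are no numbers of independent observations. The kallikreins lay in the neighbouring windows chr7:43000001-44000000 (16 genes) and chr7:44000001-45000000 (10 genes), in a single TiNRD and a single early domain. All 57 protocadherins lay in a single window and a single TiNRD.

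A few mixed windows went against their class. The only one that was wholly loose and late, chr1:173000001-174000000, held 21 genes, 5 of them olfactory receptors such as Olfr1408, and had values of −0.545 and −0.76. Next by loose and late length were 3 windows on chromosome 7, at 5, 12 and 13 Mb, with 500 to 600 kb loose and 600 to 650 kb late, which held 11, 12 and 5 receptor genes, mostly vomeronasal, beside zinc finger genes or sulfotransferases. The fifth, chr4:88000001-89000000, with 35 genes, held the interferon genes Ifnb1, Ifna15, Ifna14 and Ifna9 and was 600 kb loose and 600 kb late. In 4 of these 5 windows, chemosensory receptors were present without reaching 50% of the genes. Receptors were also present in mixed windows that were wholly tight. Examples were chr4:118000001-119000000 (13 of 27 genes, wholly early) and chr7:140000001-141000000 (19 of 49 genes, 800 kb early). The share of mixed windows with receptor genes was not computed.

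At the ends of the scale, the highest NRD score of a main domain (1.64) belonged to the TiNRD at chr10:79400001-82200000. It covered the windows at chr10:80000001-81000000 and chr10:81000001-82000000, both wholly tight and early. It was also the main domain of the window at chr10:79000001-80000000, which was only 600 kb tight. The lowest score (−2.39) belonged to the mixed window chr4:42000001-43000000, with the chemokine genes Ccl21b, Ccl27b and Ccl19, in which 500 kb were loose, 400 kb had no NRD call, 550 kb were early, and 20.3% of 50-mers were single. The highest RT value (1.8) was found at chr19:4000001-5000000, which held Pold4, a subunit of DNA polymerase delta, and was wholly tight and early. It was not the value of this window alone, since the window at chr19:5000001-6000000, with Pola2, had the same. The lowest (−1.05) was found at chr11:73000001-74000000, a receptor window with Olfr20 and Olfr376.

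Base composition moved with the calls and the classes. The median A/T content was 53.4% in mixed windows, 60.5% in receptor clusters, 59.1% in windows of other families and 58.7% in windows with fewer genes, and the median CpG number was 12.2, 5.75, 6.77 and 7.78 per kb. Repeats covered a median of 46.8% of receptor windows and 30.3% of mixed windows. Within bands of A/T content the tight share of windows differed less with gene number below 58% A/T than from 58 to 60%. From 54 to 56% A/T, 97% of the length of 57 mixed windows and 98% of the length of 271 windows with fewer genes was tight, and from 60 to 62% A/T it was 8.75% for 8 receptor windows and 4.49% for 424 windows with fewer genes. From 58 to 60% the shares were 60.8% for 13 mixed windows, 41.7% for 12 receptor windows and 37.9% for 445 windows with fewer genes.

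The early share also differed within these bands. From 52 to 54% A/T it was 98.6% in 75 mixed windows and 87.1% in 130 windows with fewer genes, and from 54 to 56% it was 92.5% and 71.6%. From 56 to 58% it was 66.2% in 28 mixed windows and 56.1% in 431 windows with fewer genes. In receptor windows of 60 to 62% A/T it was 15.6%, beside 13.5% in windows with fewer genes. Below 56% A/T the tight share was near its upper limit in both sets, so that it could differ only little there. MNase cuts A/T-rich DNA more readily, and the part of base composition in the wrapping calls was not tested.

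**Figure D5:**
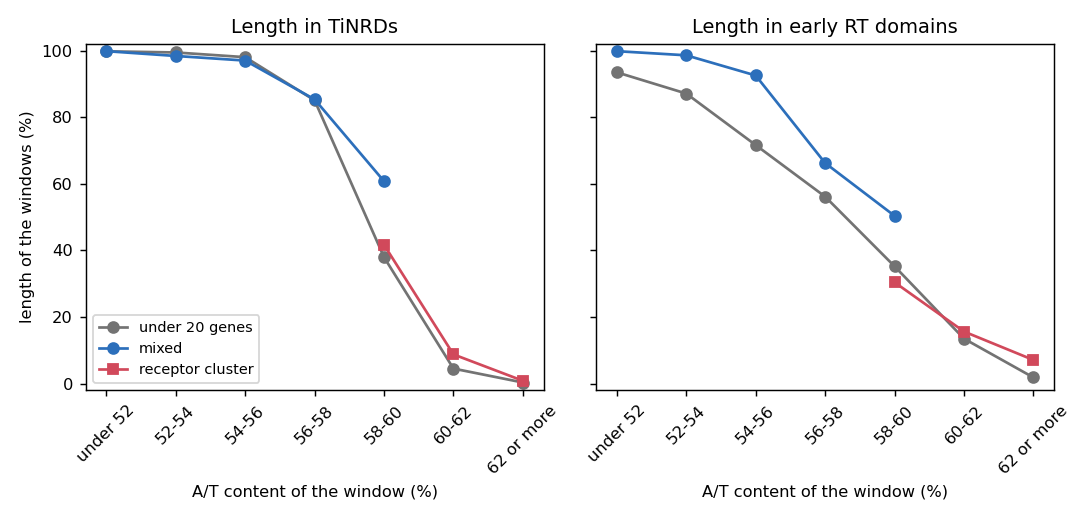
Share of the length in TiNRDs (left) and in early RT domains (right) by A/T content of the window, for windows with fewer than 20 genes (grey), mixed gene-dense windows (blue) and receptor clusters (red); points rest on at least 5 windows. The lines of tight length lie close to each other up to 58% A/T, while the blue line of early length lies above the grey one, by 92.5 against 71.6% at 54 to 56%.

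Windows of repeated sequence had their own pattern. In 28 gene-dense windows fewer than 80% of the 50-mers occurred at a single place of their chromosome, so that reads from them are harder to place, and the part of this in the calls was not tested. In these, 34.6% of the length was tight and late, against 2.28% in the other 257 windows. The same tilt was seen outside the gene-dense windows. Among windows with fewer genes this share was 28.7% in the 94 below the limit of 80% and 12.1% in the other 2032. The 28 included 3 neighbouring mixed windows of chromosome 14, from 4 to 7 Mb, with 23, 22 and 21 genes, all with placeholder symbols. They were wholly tight (score 1.35) and wholly late (RT value −0.56). Their single 50-mers made up 7.52 to 14.5%. They counted as mixed because placeholder symbols name no family, and whether their genes belong to 1 family was not determined. The window at chr7:22000001-23000000 also counted as mixed, with 13 vomeronasal type 1 receptors and 14 placeholder symbols among 27 genes. It was 600 kb tight and wholly late, with 3.73% of single 50-mers. Without the 28 windows the early share of the mixed windows was 94.7% in place of 90.6%, and the tight share of the receptor windows 21.1% in place of 24%.

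Across chromosomes, the tight share of mixed windows was lowest on chromosome 1 (78.3%, 6 windows) and reached 100% on chromosomes 12, 18 and 19. Their early share was lowest on chromosome 14 (60.8%, 12 windows), where the 3 windows of placeholder genes lie. Receptor windows had 0% tight length on chromosomes 9, 16 and 19 and 73.3% on chromosome 11, where there were 3. On each of the 11 chromosomes with receptor windows, the tight share of these was below that of the mixed windows of the same chromosome.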

How the data were processed

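The authors trimmed reads with cutadapt 4.3, aligned them to mm10 with Bowtie2 2.5.1 and removed duplicates with picard. For the NRD list the authors counted fragments above and below 140 bp in 100 kb bins, turned the relative deviation into a z-score, smoothed it over 10 bins and called domains with homer2. The value of an NRD is therefore a score deposited by the authors, without a unit. For the RT list the authors divided the early by the late fractions in 50 kb windows, took log2, quantile normalized the values and called domains in the same way, and the deposited log2 value of each domain was used. How bins were combined into the value of a domain, and whether both RT experiments entered the list, was not given in the sources used here. Since smoothing spans the length of a window and reads of low mapping quality were removed, borders are blurred and repeated sequence may be called from few reads.

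Lengths, gene calls and sequence were computed with Python 3.11.15 and numpy 2.4.6, and plots with matplotlib 3.10.9. The reference was GRCm38, in which all domains of chromosomes 1 to 19 lay inside the chromosomes and the last RT domain ended at the chromosome end on 18 of 19. Overlaps were checked against bedtools 2.31.1 with 0 bases of difference and tested on simulated data. Of 2473 windows, 62 with less than 50% of assembled bases were left out. A gene was placed by its midpoint. Families were recognised by symbol with 40 lists, 6 of them of receptors and 26 of other families. Single 50-mers were sampled every 10 bases. The 2 lists hold 1 value column each, and 0 columns were left out. The members and lists were chosen with earlier results of these data known. Named windows were, by a fixed rule, the 5 with the most genes of each class, the 5 mixed windows with the longest loose and late length, the 5 receptor windows with the longest tight or early length, and the windows with the highest and the lowest value of each list. Named genes were up to 4 listed genes of these windows and members of the pluripotency, housekeeping and replication lists. Other windows, runs and genes were named after their values were seen. No test was made, since each list is 1 set of calls. The alternatives changed the gene minimum, the grid, the point that places a gene, the genes counted, the family share, the denominator, the shortest domain, the majority, and the chromosomes used. RefSeq genes and windows of mostly single 50-mers were added as alternatives after seeing the data. The sequence of 1 further window is not reported here.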

Additional observations from a re-analysis of the deposited data

How the results depend on the processing

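Of 129 alternative values for 11 results, 112 stayed close to the main value (within 1.5 times for a number of windows, within the exact 95% binomial interval of the windows for a share, which takes windows as independent although neighbours share domains). With at least 15 genes there were 456 gene-dense and 395 mixed windows, and 44.7 and 35.6% of the other windows' length were tight and early. With at least 30 genes there were 117 gene-dense, 89 mixed and 20 receptor windows, 95% of the mixed length was early, and 50.9 and 42.4% of the other windows' length were tight and early. Requiring 80% of the window left 77.9% of gene-dense windows tight and 71.6% early. Without placeholder symbols 95.4% of the mixed length was early. With mostly single 50-mers 86.8% of gene-dense windows and 94.7% of the mixed length were early. A family share of 70% gave 9.2% of tight receptor length. It also gave 11.6% of early receptor length in place of 22.6%, counted as close only because the interval was wide (10.4 to 40.1%). Domains of at least 500 kb gave 36.9% of early length in the other windows. These alternatives differ in construction from the main values (other windows, domains or limits), and no direction between classes turned: the receptor windows were less tight and less early than the mixed windows under each alternative that was run. No paired analysis was possible because the 2 lists used here hold no values of single replicates. The lists give no depth, so domains cannot be ranked by reliability.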

Other observations

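Further families of gene-dense windows can be read against all genes of these windows, of which 83.8% were tight and 81.1% early. All 34 class I and II MHC genes, which present antigens, lay in gene-dense windows, with 30 tight (88.2%), 30 early and 1 late. Of the 45 cytochrome P450 genes in these windows, which oxidise steroids and drugs, 44 were tight but only 33 early, and of the 35 in windows with fewer genes 10 were tight and 13 early, where 74.8% and 71.1% of all genes were. NK cell lectin receptors were tight in 7 and early in 9 of 22 cases. The 16 interferon alpha and beta genes were divided within their own cluster, with 10 tight and 6 loose, 12 early and 4 late. The 19 genes on the list of Scd, Ms4a and other membrane families were divided like the histones: 14 were loose, 12 early and 0 late. Of the 19 genes 5 were both tight and early, and some had no RT call. Psg and Ceacam genes, of which Psg genes are expressed in the placenta, were tight in 20 and early in 15 of 22 cases. The UDP-glucuronosyl and sulfotransferases, which conjugate drugs and hormones, were tight in 3 and early in 3 of 18 cases.

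The classes also differed in what else the annotation holds. Receptor windows had 15.8 pseudogenes and 1.23 long noncoding RNA genes per window, and mixed windows had 7.19 and 6.49, while the numbers of protein-coding genes were 33.7 and 29.9 per window. The median length of a receptor gene in the receptor windows was 5.69 kb, that of the other genes there 14.8 kb, that of genes of mixed windows 11.2 kb and that of genes in windows with fewer genes 29 kb. All 15 trace amine-associated receptors, a family of olfactory receptors for amines, lay outside the gene-dense windows and were tight and early, on the other side of both lists from the odorant receptors. Neighbouring genes share domains, and the number of domains behind these 15 calls was not counted. In windows with fewer genes, 34 of 125 odorant receptor genes (27.2%) were tight and 41 (32.8%) early, beside 74.8% and 71.1% of all genes of these windows.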
